A study of Mus musculus with 12 samples.

Results

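Dusp5 and Dusp6 encode dual-specificity MAP kinase phosphatases that act on the kinase ERK, and both were chosen by gene name, as 2 of the 584 genes in the table of hippocampal read counts deposited with the study. RNA was taken from the hippocampus of C57BL/6 male mice that were weaned on postnatal day 21 and then kept for 5 weeks in a standard cage (SH, 3 libraries) or an enriched environment (EE, 3 libraries) with toys, tunnels and hideouts, until an age of 8 weeks. Mice of both groups were wild type, and no treatment other than the housing is named for the sequenced mice. The study does not say whether they were among the mice given BrdU, a label of dividing cells, or the behavioural tests. SH cages held 4 to 5 animals and EE cages 8 to 9, so the objects in the cage and the number of cage mates cannot be told apart. The table holds only genes that the authors had called different between EE and SH, so a test of that difference within it is not independent of how its genes were selected. Another 6 libraries of m6A immunoprecipitated RNA belong to the study and were not analysed here.

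MAP kinases such as ERK are switched on when a threonine and a tyrosine in their activation loop are phosphorylated, and a dual-specificity phosphatase removes the phosphate from both residues. The Dusp6 protein resides mainly in the cytoplasm and the Dusp5 protein in the nucleus, and both are selective for ERK over the kinases p38 and JNK. Transcription of both genes is known to be induced by ERK signalling itself, so that they form a negative feedback loop. In hippocampal neurons ERK is activated by synaptic activity and by neurotrophins such as BDNF, and is required for several forms of memory.

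Dusp5 lies on the forward strand of chromosome 19 of GRCm38 (53529145 to 53541809, 4 exons in RefSeq), and Dusp6 on the forward strand of chromosome 10 (99263231 to 99267489, 3 exons). No other RefSeq gene overlaps Dusp5. The whole span of Gm34921, introns included, lies on the reverse strand (99266864 to 99270899) and covers 626 of the 2797 exon bases of Dusp6. Overlap with its exons alone was not measured. Reads there could be shared or left out where the counting did not use strand, which the sources used here do not give. The bases just upstream of the most upstream annotated start are shown for both genes because both genes are known to be induced by ERK signalling. Capitals mark matches to the motifs searched, and both sequences are from RefSeq's GRCm38.p6, forward strand, chr19:53528895-53529108 for Dusp5 and chr10:99262981-99263230 for Dusp6.
Dusp5: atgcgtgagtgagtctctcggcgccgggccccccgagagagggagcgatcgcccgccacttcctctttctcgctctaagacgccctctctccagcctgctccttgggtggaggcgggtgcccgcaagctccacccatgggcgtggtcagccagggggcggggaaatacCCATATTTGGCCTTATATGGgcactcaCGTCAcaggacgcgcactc
Dusp6: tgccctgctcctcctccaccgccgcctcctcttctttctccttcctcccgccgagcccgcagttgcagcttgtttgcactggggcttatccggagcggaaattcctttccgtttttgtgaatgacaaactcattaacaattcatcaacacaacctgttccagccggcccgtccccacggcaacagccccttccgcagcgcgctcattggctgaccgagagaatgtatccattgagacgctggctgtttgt

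The first 20 capitals of Dusp5 are 2 adjoining CArG boxes, the core letters of the serum response element. They span bases 82 to 73 and 72 to 63 before the RefSeq start. The remaining capitals, bases 55 to 51 before the start, are the core TGACG of the cAMP response element read on the reverse strand. Each motif was searched on both strands of a window of 300 bases, from 250 before to 50 after the RefSeq start. A CArG box was in 1.63% of the 32851 windows of the RefSeq table used here, and 2 or more were in 6 of them, Dusp5 included. TGACG was in 20.8% of the windows. None of the motifs searched was in the window of Dusp6, which were the CArG box, TGACG, the full cAMP response element TGACGTCA (1.79% of windows), the AP-1 site TGANTCA (7.81%), the ETS core CCGGAA (14.9%), the EGR site GCGTGGGCG (0.612%) and the E-box CACGTG (7.15%). TGACGTCA contains TGACG. Of the 8 ERK-responsive transcription factor genes of the table that had a window, 1 held a CArG box, Egr2, and 5 held TGACG. A match describes letters in these windows and is no evidence of binding.

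Dusp5, the nuclear phosphatase, was higher in EE than in SH. Its level per gene length and library size (FPKM, read fragments scaled to gene length and sequencing depth) was 9.24, 7.20 and 8.68 in SH replicates 1, 2 and 3, and 10.6, 11.7 and 11.4 in EE replicates 1, 2 and 3. No EE library was as low as any SH library, and the lowest EE library was 1.15 times the highest SH library. The SH mean of Dusp5 was 8.37 ± 1.05 FPKM (SD, n = 3) and its EE mean was 11.2 ± 0.55 FPKM (SD, n = 3). The log2 fold change was 0.43 (standard error 0.10), an increase of 34.3%, and the quasi-likelihood test of edgeR gave a Benjamini-Hochberg adjusted p of 0.0146 over the 584 genes. The read counts behind these levels were 341, 321 and 404 in SH and 459, 570 and 710 in EE. Counting error alone gives a coefficient of variation of 5.33% in SH and 4.22% in EE at these counts, and the observed coefficients were 12.5% and 4.91%. Each observed coefficient rests on 3 libraries, and its difference from counting error was not tested.

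Dusp6, the cytoplasmic phosphatase, was also higher in EE. Its level was 19.5, 15.9 and 17.6 FPKM in SH replicates 1, 2 and 3, and 22.1, 23.1 and 20.8 FPKM in EE replicates 1, 2 and 3. The groups did not overlap, with the lowest EE library at 1.07 times the highest SH library. The SH mean of Dusp6 was 17.7 ± 1.78 FPKM (SD, n = 3) and its EE mean was 22.0 ± 1.14 FPKM (SD, n = 3). The log2 fold change was 0.32 (standard error 0.08), an increase of 24.4%, and the adjusted p from the same edgeR fit was 0.0147. The read counts were 1743, 1719 and 1987 in SH and 2319, 2732 and 3137 in EE. The observed coefficients of variation were 10.1% in SH and 5.18% in EE, both above the counting error of 2.35% and 1.93%. In whole tissue, more cells that express a gene and more RNA per cell cannot be told apart, for Dusp5 as for Dusp6.

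**Figure D1:**
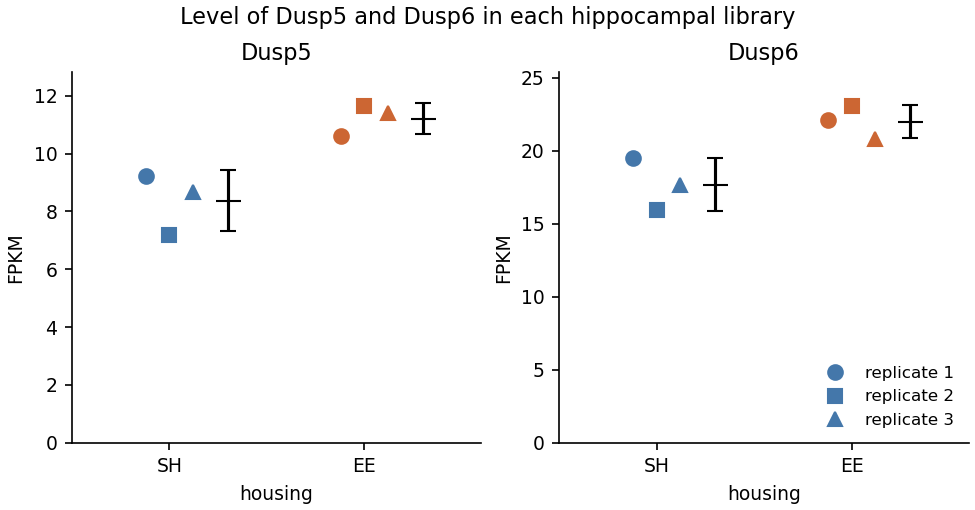
The level of Dusp5 (left) and Dusp6 (right) in FPKM is plotted for each library by housing, with a different symbol for each replicate and the mean ± SD of the 3 libraries beside them in black. For both genes the 3 EE libraries sit above the 3 SH libraries, and SH replicate 2 is the lowest library.

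For either gene alone, an exact permutation test of the 6 libraries had a two-sided p of 0.1, which is the minimum for 3 libraries against 3. The EE libraries lay wholly above the SH libraries in 37.2% of the 584 genes, and 19.2% of the genes were higher in EE at an unadjusted p under 0.01 in edgeR, which both phosphatase genes passed. This p is the level given in the study's methods, where it stands beside a limit on the fold change that was not applied here. Every gene of the table was under 0.01 in the authors' own comparison. A gene that did not pass below therefore missed the threshold in the present fit, not in the study's. Dusp5 had rank 34 and Dusp6 rank 59 by log2 fold change among the 246 genes with a higher value in EE, whose median was 0.21. At that threshold 112 genes were higher and 237 lower, and this split depended on the scaling. It was 229 and 53 with edgeR's TMM factors, 217 and 90 with the reads on genes of the table that are not mitochondrial as library size, and 233 and 29 with DESeq2, which shifted the median log2 fold change of all genes by 0.11. With a library left out it was 52 and 88 (EE replicate 1), 58 and 77 (EE replicate 2) or 54 and 111 (SH replicate 2). Dusp5 had a log2 fold change of 0.50, 0.47 and 0.53 under the TMM, non-mitochondrial and DESeq2 scalings in turn, and Dusp6 of 0.39, 0.37 and 0.42, each under the threshold. These 3 scalings were computed from the 584 selected genes alone. TMM and DESeq2 take most genes to be unchanged, which genes selected for a difference do not meet. The median log2 fold change of the table moved from -0.18 to -0.10, -0.13 and -0.07 in turn. The larger values of both genes under these scalings are therefore no further support.

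Dusp5 stayed under an unadjusted p of 0.01 in each of the 6 fits that left out a library, with log2 fold changes between 0.33 and 0.50. Dusp6 stayed under it in 5 of these 6 fits, with log2 fold changes between 0.25 and 0.39. Without EE replicate 2, the EE library with the highest level of Dusp6, its log2 fold change was 0.28 and its unadjusted p was 0.0106 in edgeR. The smallest values for both genes came without SH replicate 2, the library with the lowest level of each.

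**Figure D2:**
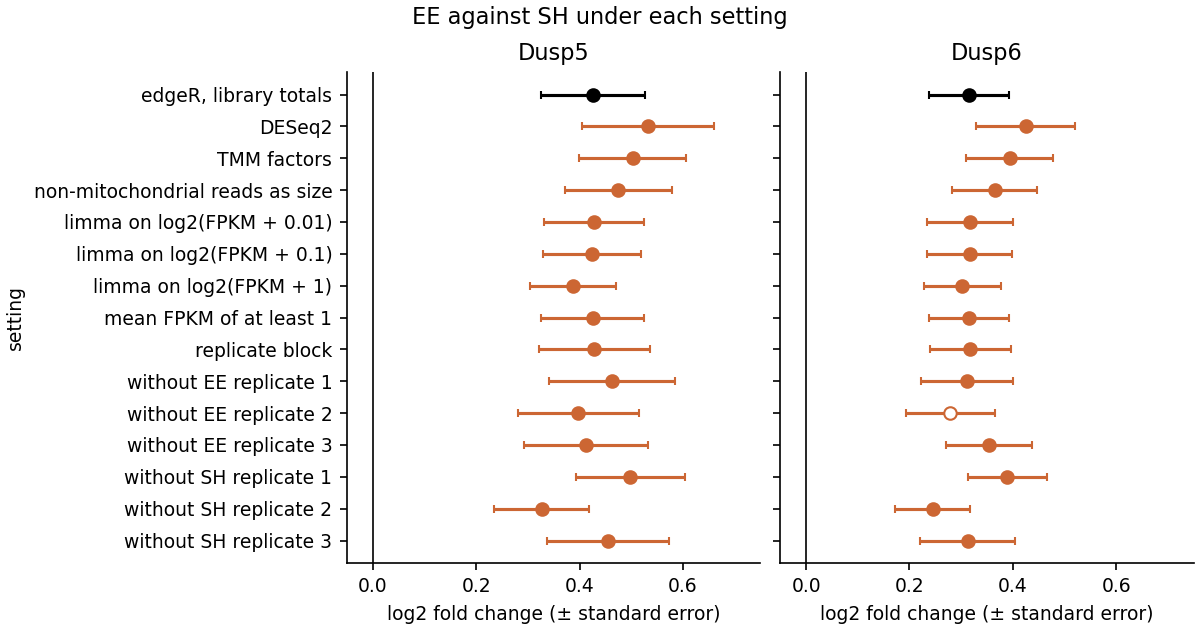
The EE to SH log2 fold change ± standard error is plotted for Dusp5 (left) and Dusp6 (right) under each of the 15 settings, with edgeR on the library totals in black. Filled points had an unadjusted p under 0.01, and the open point is Dusp6 without EE replicate 2. All points are above 0.

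The genes were next compared with each other within each library, where library scaling cancels. Dusp6 had 2.11, 2.21 and 2.03 times the FPKM of Dusp5 in SH replicates 1, 2 and 3, and 2.09, 1.98 and 1.82 times in EE replicates 1, 2 and 3. Dusp6 was the higher gene in 6 of 6 libraries (exact sign-flip permutation test of the log2 ratio, two-sided, p = 0.0313, the smallest that 6 libraries allow). The length behind the FPKM of Dusp5 was 1155 bases, equal to its coding length in RefSeq, where its exons hold 1815 bases. For Dusp6 it was 2797 bases, the whole exon length, so the levels of both genes rest on differently built gene models. The mean log2 ratio was 1.08 ± 0.06 (SD, n = 3) for SH libraries and 0.97 ± 0.10 (SD, n = 3) for EE libraries. The difference of -0.11 (EE minus SH, standard error 0.07) had p = 0.2 in the exact permutation test (two-sided), where 0.1 is the smallest possible. The larger fold change of Dusp5 was thus not separated from that of Dusp6 by these libraries. Left out in turn, the libraries gave differences between -0.16 and -0.06, with the value nearest 0 without EE replicate 3.

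**Figure D3:**
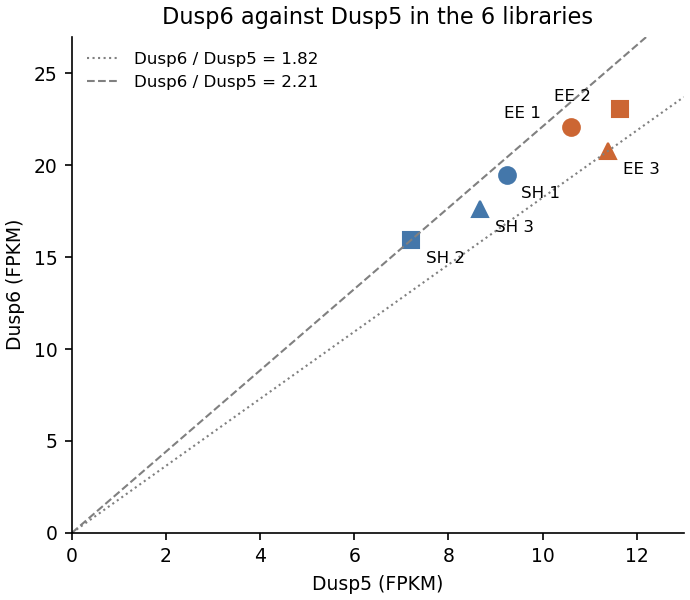
Dusp6 (vertical axis, FPKM) is plotted against Dusp5 (horizontal axis, FPKM) for the 6 libraries, with SH in blue and EE in orange. Grey lines mark the lowest and the highest ratio of Dusp6 to Dusp5, 1.82 in EE replicate 3 and 2.21 in SH replicate 2, and the EE libraries lie further from the origin than the SH libraries.

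Within SH, both genes were highest in replicate 1 and lowest in replicate 2. Within EE, both were highest in replicate 2, Dusp6 was lowest in replicate 3 and Dusp5 was lowest in replicate 1. A relation between the genes across libraries was not tested. As a description over the 6 libraries, which all genes of the table share, the 5 genes whose log2(FPKM + 0.1) was most like that of Dusp6 were Neurod6 (Pearson r = 0.990), ATP6 (0.982), B230110G15Rik (0.978), Zfp948 (0.975) and Nr4a3 (0.972). For Dusp5 these were Rbm7 (r = 0.978), Neurod6 (0.965), LOC328448 (0.961), P2ry12 (0.957) and B230110G15Rik (0.957). Dusp5 and Dusp6 had r = 0.955 with each other, which made Dusp6 rank 6 of 583 in the list of Dusp5 and Dusp5 rank 12 in that of Dusp6. High values are common here, since every gene was selected for a difference between the groups, and 36 genes exceeded 0.9 with Dusp5 and 48 with Dusp6.

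On deviations from the group means, which hold only the differences between libraries of one group, Dusp6 was most like Neurod6 (r = 0.980), ATP6 (0.980), Nr4a3 (0.974) and E130012A19Rik (0.953). Dusp5 was most like Igfbp5 (0.993), Klf10 (0.968), Rbm7 (0.908), E130012A19Rik (0.907) and Rbm3 (0.888). The genes had r = 0.817 with each other on these deviations, which made Dusp6 rank 11 of 583 for Dusp5 and Dusp5 rank 26 for Dusp6. Igfbp5 was lower in EE (log2 fold change -0.24), a call lost in 1 of 14 alternatives, with DESeq2 (-0.13). E130012A19Rik had a log2 fold change of -0.29 (-0.19 with DESeq2) and did not pass the threshold in edgeR over all 584 genes. Nr4a3 encodes an orphan nuclear receptor and Klf10 a zinc finger factor, both inducible transcription factors, and Neurod6 a transcription factor of excitatory neurons. ATP6 is a mitochondrial gene, and the share of the table's reads on its 5 mitochondrial genes was 32.2%, 28.3% and 30.1% in SH replicates 1, 2 and 3 and 35.1%, 37.9% and 32.8% in EE replicates 1, 2 and 3. The 6 libraries had the same order by this share as by the level of Dusp6. With the table's non-mitochondrial reads as library size, which leaves out mitochondrial reads and also all reads outside the table, the log2 fold change of Dusp6 was 0.37. The part of the mitochondrial share in the level of Dusp6 was not tested.

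The other genes of the pathway were taken from lists of MAP kinase pathway genes, of which 17 of 125 besides Dusp5 and Dusp6 were in the table and the rest were not analysed here. Of these 17 genes, 5 passed the threshold of the unadjusted p in edgeR as higher in EE and 4 as lower, against 19.2% higher and 40.6% lower over all 584 genes. Their median log2 fold change was 0.18, against -0.18 over all genes. The EE libraries lay wholly above the SH libraries in 9 of the 17 (37.2% of all genes) and wholly below them in 4 (53.8% of all genes). In either direction this is 13 of 17, against 531 of all 584 genes. Of the 10 MAP kinase phosphatases listed, Dusp5 and Dusp6 alone were in the table.

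Among inputs to the cascade, Bdnf, a neurotrophin that activates ERK through its receptor TrkB, rose from 7.96 ± 0.26 to 9.48 ± 0.11 FPKM (SD, n = 3 each), a log2 fold change of 0.25. Igf1r, the receptor for insulin-like growth factor, fell from 4.73 ± 0.14 to 4.04 ± 0.12 FPKM (log2 fold change -0.23). Sos1, an exchange factor that loads Ras with GTP, rose from 7.67 ± 0.23 to 8.65 ± 0.26 FPKM (log2 fold change 0.17). Rasgrp1, another Ras exchange factor, had a log2 fold change of 0.16 and did not pass the threshold. Among brakes on the cascade other than phosphatases, Errfi1, a feedback inhibitor of the EGF receptor, rose from 16.7 ± 0.61 to 19.3 ± 0.25 FPKM (log2 fold change 0.21). Rasal2, a GTPase-activating protein for Ras, had a log2 fold change of 0.15 and did not pass the threshold. The call of Sos1 was lost in 7 of 14 alternatives, that of Errfi1 in 1, that of Igf1r in 3 (the other scalings) and that of Bdnf in 0 of 14. With DESeq2 the log2 fold change was 0.28 for Sos1, 0.32 for Errfi1 and -0.12 for Igf1r. Rasgrp1 and Rasal2 passed the threshold under the 3 other scalings, with log2 fold changes of 0.24 and 0.22 (TMM), 0.21 and 0.20 (non-mitochondrial reads) and 0.27 and 0.26 (DESeq2).

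Of the 10 ERK-responsive transcription factor genes in the table, 8 had a higher mean in EE and 2 a lower one, against 246 and 338 of all 584 genes. In each direction 2 of the 10 passed the threshold, against 19.2% higher and 40.6% lower over all genes. Egr4 rose from 3.74 ± 0.30 to 4.78 ± 0.27 FPKM (log2 fold change 0.36). Atf3, a stress-inducible bZIP factor expressed at a low level, rose from 0.39 ± 0.09 to 0.75 ± 0.07 FPKM (log2 fold change 0.93). Jun and Jund, subunits of the AP-1 factor, fell, with log2 fold changes of -0.18 and -0.22, and their calls were lost in 10 and 7 of 14 alternatives. The call of Egr4 was lost in 3 of 14, without EE replicate 1, EE replicate 3 or SH replicate 3, and that of Atf3 in 0 of the 13 that could be fitted. Egr1, Egr2, Nr4a1, Nr4a3, Klf10 and Etv1 had log2 fold changes of 0.39, 0.97, 0.43, 0.18, 0.28 and 0.13 and did not pass it, their unadjusted p-values lying between 0.0108 and 0.0327 in edgeR. Of these 6 genes, Nr4a3 and Etv1 passed under the 3 other scalings, with DESeq2 values of 0.29 and 0.24, Klf10 passed with DESeq2 alone among them (0.39), and Egr1, Egr2 and Nr4a1 passed under none of the 3. SH replicate 1, the SH library with the highest level of Dusp5 and Dusp6, was also the highest SH library in 6 of the 8 genes with a higher mean in EE. Egr1 stood at 50.5, 33.2 and 34.1 FPKM in SH replicates 1, 2 and 3 and at 51.4, 55.7 and 46.9 FPKM in EE replicates 1, 2 and 3. SH replicate 1 therefore lay among the EE libraries for Egr1, and not for Dusp5 or Dusp6. Without SH replicate 1 the log2 fold change was 0.61 for Egr1, 1.58 for Egr2, 0.67 for Nr4a1, 0.25 for Nr4a3 and 0.38 for Klf10, and these 5 genes then passed the threshold. In the same fit it was 0.50 for Dusp5 and 0.39 for Dusp6. Without SH replicate 2 the values of Egr1, Egr2, Nr4a1, Nr4a3 and Klf10 were 0.28, 0.72, 0.32, 0.13 and 0.14, and without SH replicate 3 those of Egr1, Egr2 and Nr4a1 were 0.30, 0.73 and 0.31, none of them past the threshold.

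On the p38 and JNK side, which these phosphatases largely spare, 1 of 18 listed genes was in the table. Map3k10, a kinase upstream of JNK, fell from 16.8 ± 0.63 to 14.5 ± 1.15 FPKM (log2 fold change -0.21), a call lost in 11 of 14 alternatives. None of the 7 listed kinases that ERK activates (0 of 7) was in the table. The calls of the 19 listed genes, Dusp5 and Dusp6 included, moved from 7 higher and 4 lower to 11 and 0 with TMM factors or with non-mitochondrial reads as library size, and to 12 and 0 with DESeq2. Over all 584 genes the same scalings moved the calls from 112 and 237 to 229 and 53 (TMM), 217 and 90 (non-mitochondrial reads) and 233 and 29 (DESeq2). Igf1r, Jun, Jund and Map3k10 kept a lower value in EE under these 3 scalings, and passed the threshold under none of them. With DESeq2, where they were nearest to 0, their log2 fold changes were -0.12, -0.07, -0.12 and -0.10. Without SH replicate 1 the calls were 11 higher, and without SH replicate 3 they were 4 higher. They were 1 lower without EE replicate 1, EE replicate 2 or SH replicate 2, and 2 lower without SH replicate 3.

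**Figure D4:**
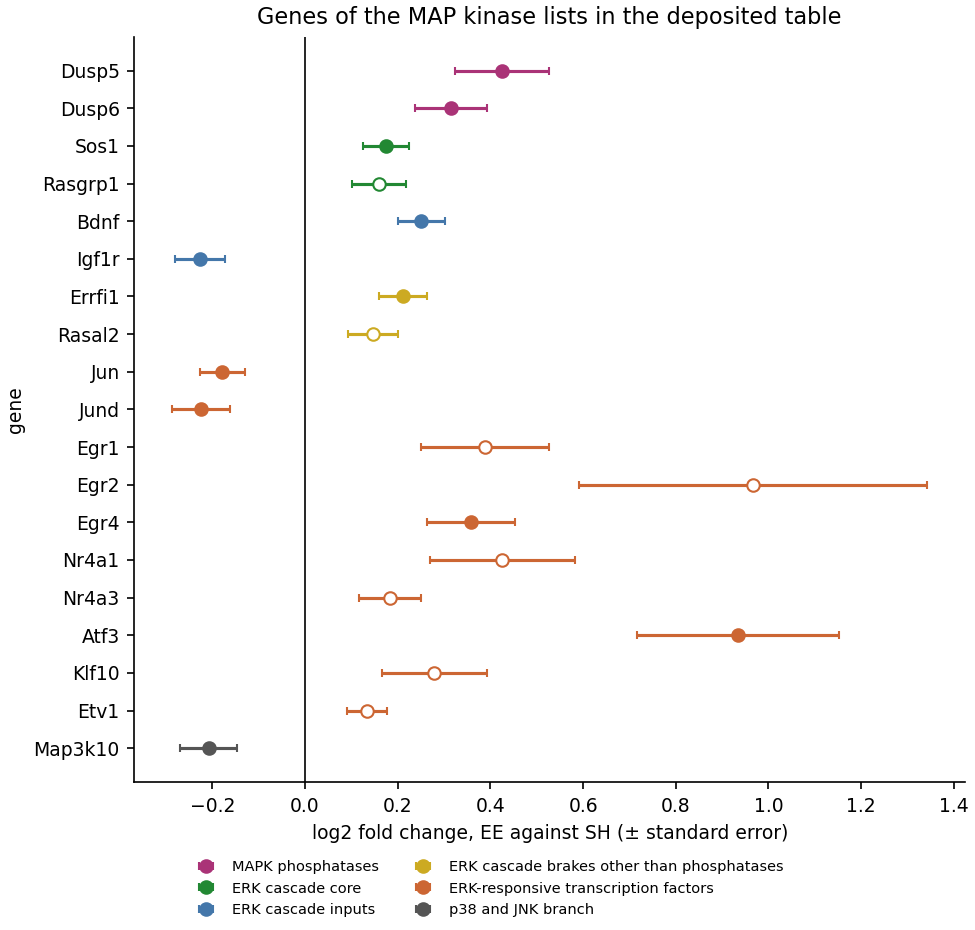
The EE to SH log2 fold change ± standard error is plotted for the 19 genes of the MAP kinase lists in the table, coloured by list, with filled points for an unadjusted p under 0.01 in edgeR. Dusp5 (0.43) and Dusp6 (0.32) lie to the right of the upstream genes Sos1 (0.17) and Bdnf (0.25), and Igf1r, Jun, Jund and Map3k10 lie left of 0. Egr2 (0.97) and Atf3 (0.93) lie right of Dusp5, Nr4a1 (0.43) lies level with it, and Egr1 (0.39) and Egr4 (0.36) lie between Dusp5 and Dusp6.

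Genes higher in EE had a median exon GC content of 43.9%, and genes lower in EE of 56.8%, so both phosphatase genes were also set beside genes of like GC content. The exons of Dusp5 held 61.2% GC, which is rank 2 among the 242 genes that were higher in EE and had a value. Of the 94 other genes within 2.5 percentage points of it, 2 had a higher value in EE, Dbp and Lingo3 (named after their values were seen), and the median log2 fold change of the 94 was -0.23. The exons of Dusp6 held 49.0% GC, and 40 of 86 genes within 2.5 points were higher, with a median log2 fold change of -0.17. The part of GC content in the fold changes of Dusp5 and Dusp6 was not tested.

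**Figure D5:**
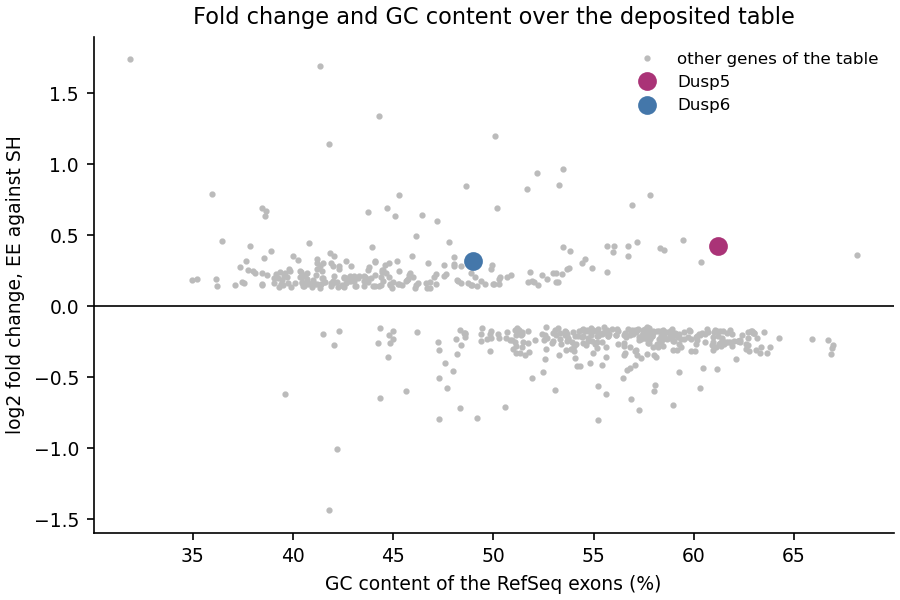
The EE to SH log2 fold change (vertical axis) is plotted against the GC content of the RefSeq exons in percent (horizontal axis) for the genes of the table with a GC value, in grey, with Dusp5 and Dusp6 marked. Dusp5 (61.2% GC) lies above 0 where most genes of like GC content lie below it, and Dusp6 (49.0% GC) lies where genes of both directions are found.

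Markers of cell types in the tissue were covered in part by the table, and no marker in it was at 0 in any library. Of 10 markers of hippocampal excitatory neurons 2 were present, Neurod6 and C1ql2, and their summed level was 159.9 to 167.9 FPKM in SH and 173.7 to 179.1 FPKM in EE. Neurod6 rose (log2 fold change 0.17, 0.24 with TMM and 0.275 with DESeq2), a call lost in 8 of 14 alternatives, 5 of them fits without a library. C1ql2 had a log2 fold change of -0.29 (-0.18 with DESeq2) and did not pass the threshold. It passed with the replicate number as a block (-0.29), without EE replicate 3 (-0.41) and without SH replicate 1 (-0.39). The microglial marker P2ry12 (1 of 6) rose, with 18.6 to 21.7 FPKM in SH and 23.5 to 24.8 FPKM in EE (log2 fold change 0.24), a call kept in 12 of 14 alternatives and lost without EE replicate 2 or SH replicate 2. The astrocyte markers Aldh1l1 and Gja1 (2 of 7) summed to 101.4 to 104.0 FPKM in SH and 91.2 to 92.4 FPKM in EE. Their log2 fold changes were -0.21 and -0.15 with library totals, -0.13 and -0.07 with TMM and -0.10 and -0.04 with DESeq2, and the calls were lost in 8 and 10 of 14 alternatives. The endothelial markers Cldn5 and Slco1a4 (2 of 7) summed to 7.36 to 8.22 FPKM in SH and 6.86 to 7.45 FPKM in EE. Cldn5 fell (log2 fold change -0.44, a call lost in 3 of 14 alternatives), and Slco1a4 had a log2 fold change of 0.28 and did not pass the threshold, which it did under the 3 other scalings (0.39 with DESeq2). The groups overlapped in neither gene, as in 531 of all 584 genes. The interneuron marker Cort (1 of 8) lay between 6.88 and 9.31 FPKM in SH and between 9.83 and 11.0 FPKM in EE, and the blood marker Hba-a1 (1 of 5) between 57.6 and 78.1 FPKM and between 75.4 and 95.1 FPKM. Neither Cort nor Hba-a1 passed the threshold with library totals, and both did with TMM and DESeq2 (0.51 and 0.47 with DESeq2). None of the 8 oligodendrocyte lineage markers was in the table (0 of 8). The part of these cell types in the levels of Dusp5 and Dusp6 was not tested.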

How the data were processed

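The authors aligned to mm10 (Hisat2), obtained gene counts with FeatureCounts 1.5.0-p3, and deposited raw counts and FPKM for each library of the genes they called with edgeR. The deposited p-value and log2 fold change columns hold the authors' own comparison. They were not used, except to check that every p was under 0.01. Groups and replicate numbers came from the labels. Totals behind the FPKM were computed from count, FPKM and RefSeq exon length (GRCm38), where 205 genes gave the same total in all libraries within 0.001%. They were 31969156 to 40319498 reads in SH and 37507694 to 53943195 in EE, and the smallest count in the table was 19. GC content was found for 575 genes (98.5%).

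Counts were tested over all 584 genes with edgeR 4.0.16 (quasi-likelihood, R 4.3.3), with these totals as library sizes, no further factor and no low-count filter. Adjusted p-values cover this table only, 583 of the 584 genes were under 0.05, and the call used was an unadjusted p under 0.01. The standard error was taken as the absolute log2 fold change over the square root of F. On simulated counts for this comparison over 584 genes, calls were made for 89% of 100 genes with a true log2 change of 0.4, for 35% of 100 with one of 0.2 and for 0.78% of 384 with none. Single values were tested by exact permutation over all arrangements of the libraries, in Python 3.11.15. The study describes the libraries as biological repeats of each housing, and the sources used here do not say whether a library is 1 animal or a pool. They also do not say how many cages the libraries of a housing came from. The tests treat libraries as independent, and a difference between cages could not be told apart from one between housings.

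Dusp5, Dusp6 and the lists were chosen with earlier results of these data known. Named genes are Dusp5, Dusp6, the listed pathway and marker genes in the table, and the 5 genes most like each phosphatase gene by Pearson r, of which 1 is not reported here. Alternatives were TMM factors, non-mitochondrial reads as library size, DESeq2 1.42.0, a mean FPKM of at least 1, limma 3.58.1 on log2(FPKM + 0.1) with other pseudocounts of 1 and 0.01, a replicate block and each library left out. The scalings of TMM, non-mitochondrial reads and DESeq2 were computed from the selected genes of the table alone.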

Additional observations from a re-analysis of the deposited data

How the results depend on the processing

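Dusp5 kept its direction and an unadjusted p under 0.01 in 14 of 14 alternatives, with log2 fold changes between 0.33 and 0.53. Dusp6 did so in 13 of 14, with log2 fold changes between 0.25 and 0.42 (0.25 to 0.39 with a library left out), and the exception was the fit without EE replicate 2 (0.28). With the replicate number as a block (replicate block), Dusp5 had a log2 fold change of 0.43 and Dusp6 of 0.32, both under 0.01, and their ratio differed by -0.11 between the groups (exact sign-flip p = 0.25, the smallest that 3 pairs allow). The block left 78 genes of the table called higher and 136 lower, and 9 listed pathway genes called higher, Egr1, Egr2 and Nr4a1 among them, and 2 lower. The labels do not say that a number marks a shared animal, litter or day, the deviations of same-numbered libraries correlated at 0.15, -0.04 and -0.10, and not every library correlated best with its own number.

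Counts of calls over the table moved with the scaling, to 229 higher and 53 lower with TMM, 217 and 90 with non-mitochondrial reads and 233 and 29 with DESeq2, and as each library was left out they lay between 52 and 98 higher and between 77 and 228 lower. The lowest were without EE replicate 1 (52 higher, 88 lower), EE replicate 2 (58 and 77) and SH replicate 2 (54 and 111). Listed pathway genes called were 11 higher and 0 lower with TMM or non-mitochondrial reads, 12 and 0 with DESeq2, 2 lower with limma at pseudocounts of 0.1 and 0.01, and between 4 and 11 higher and 1 and 4 lower with a library left out. Of 486 log2 fold changes of the other 35 named genes under the alternatives, 338 kept their side of the threshold, 97 lost the call, 51 gained it and 0 reversed. Genes outside the deposited table, which include the other MAP kinase phosphatases, were not analysed here.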
